A study of Homo sapiens with 4 samples.

Results

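The genes described here are the protein-coding genes of the deposited table whose symbol starts with ZBTB and a number, without symbols that carry a hyphen. There were 42 such genes among 51699 gene identifiers. ZBTB stands for zinc finger and BTB domain. A ZBTB protein carries a BTB domain near its start, through which copies of the protein pair with each other and recruit corepressors or the CUL3 ubiquitin ligase, and a run of C2H2 zinc fingers near its end, which read DNA. Most of the studied members repress transcription, and several decide the fate of blood cells, neurons or stem cells.

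RNA was sequenced from nuclei and from cytoplasm of wildtype HEK293T cells, an established line from human embryonic kidney transformed with adenovirus DNA, to which SV40 large T antigen was added. Cells of both groups had been crosslinked with formaldehyde before they were fractionated. There were 2 nuclear and 2 cytoplasmic libraries, from 2 biological replicates, each made from 400 ng of RNA depleted of ribosomal RNA and read from both ends for 100 nt. The authors counted reads over exons and introns together, so unspliced RNA adds to a gene's count in either fraction.

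Whole counts per library were recovered from the deposited means with the help of the authors' deposited estimates, as described under processing. The libraries held 21351903 to 24564492 counts on genes, of which the genes with recovered counts made up 84.4% to 84.7% in the nuclear and 57.5% to 58.4% in the cytoplasmic libraries. The rest is known only through its mean in each fraction, so the totals are in part estimates. Which replicate number each recovered library carries is not known, so the libraries are called the deeper and the shallower one of each fraction. A normalized count is a count divided by its library's size factor. The size factors were 1.34 and 1.19 for the nuclear and 0.853 and 0.755 for the cytoplasmic libraries. Equal masses of RNA were used, so RNA per cell was not measured, nor the part of a gene's RNA that is in the nucleus. In such pooled material, fewer cells with an RNA and less of it per cell cannot be told apart. NEAT1, an RNA that stays in nuclear paraspeckles, had normalized counts of 5613 and 4627 in the nuclear and 606 and 596 in the cytoplasmic libraries. The other planned checks were the nuclear RNA MALAT1 and the cytoplasmic mRNAs GAPDH and RPLP0. Their counts were not recovered, so the cytoplasmic fraction was not checked with an RNA of its own. Neurofilament and vimentin genes, known in HEK293T cells, had authors' means over all libraries of 13195 for NEFL, 16264 for NEFM and 18261 for VIM. INA was at 163, and NEFH, another neurofilament gene, at 0.876. Of 8 markers of other cell types, PTPRC, CD3E, HBB, ALB, INS and UMOD had authors' means of at most 1.76, NPHS1 was at 3.85 and COL1A1 at 213.

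A single C2H2 finger is coded by about 60 bases, in which 2 cysteines and 2 histidines hold a zinc ion. The first finger that the motif search found is given for ZBTB39 and ZBTB33, which are from the cytoplasmic end of the family, and for ZBTB20, which lies at the nuclear end. For ZBTB16 the second is given. These show what the members share whatever their place between the fractions. Capitals mark the codons of the 2 cysteines and 2 histidines, and coordinates are those of hg38.
ZBTB39 (chr12:57003736-57003798, minus strand): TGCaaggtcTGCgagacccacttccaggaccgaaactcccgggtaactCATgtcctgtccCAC
ZBTB33 (chrX:120254901-120254963, plus strand): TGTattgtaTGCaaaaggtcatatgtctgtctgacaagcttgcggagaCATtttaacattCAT
ZBTB20 (chr3:114350278-114350340, minus strand): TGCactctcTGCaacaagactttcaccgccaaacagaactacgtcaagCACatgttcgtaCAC
ZBTB16 (chr11:114156368-114156430, plus strand): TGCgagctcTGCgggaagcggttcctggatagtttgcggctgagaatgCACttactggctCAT
The motif searched was 2 cysteines with 2 to 4 residues between them, then 12 residues, then 2 histidines with 3 to 5 residues between them. Of 20046 genes with a canonical protein in GENCODE 44, 867 (4.33%) held it. Among the 41 ZBTB genes with enough counts to be fitted, the number of fingers found ran from 14 in ZBTB41 to 0 in ZBTB8OS. ZBTB8OS (chromosome 1, 32600172 to 32650903, minus strand) is named for its place opposite ZBTB8A. Its product is archease, a cofactor of the tRNA ligase complex, and it is no BTB zinc finger protein. It was kept as a member, since the choice was made by symbol.

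The ZBTB genes were spread over both directions, with log2 differences, cytoplasmic minus nuclear, from -4.48 for ZBTB20 to 2.30 for ZBTB9. Of the 41 fitted genes, 23 (56.1%) were called higher in cytoplasm, 9 higher in nuclei and 9 in neither, at a limma adjusted p of at most 0.01. Over all 19256 genes fitted, 73.6% were called, 35.3% as cytoplasmic and 38.4% as nuclear. Among protein-coding genes, 41.2% were called cytoplasmic and 35.1% nuclear. A call is thus common in these data, and the difference of the ZBTB genes from that background was not tested. The median log2 difference, cytoplasmic minus nuclear, was 0.41 over the ZBTB genes. It was -0.09 over all genes fitted, 0.12 over 13990 protein-coding genes and -0.09 over 458 genes named ZNF and a number, most of which code for other C2H2 zinc finger proteins. The normalized counts of the fractions did not overlap for 40 of the 41 genes, against 90.2% of all genes fitted, with ZBTB48 as the exception. The cytoplasmic libraries were the higher ones for 27 of them (43.0% of all genes fitted) and the nuclear ones for 13 (47.1%). ZBTB32, a lymphocyte repressor, was not fitted. It had 1 count in each nuclear library, 0 in the deeper cytoplasmic and 1 in the shallower cytoplasmic library.

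How many genes fell on each side depended on the scaling. With every library scaled to the same total of counts, the log2 differences shifted by -0.66. Then 13 ZBTB genes were called cytoplasmic and 16 nuclear, against 21.9% and 52.7% of all genes fitted, and the family's median was -0.25. All 13 were among the 23 called cytoplasmic with the size factors, and all 9 nuclear calls were kept. No gene moved from a call in one fraction to a call in the other. The order of the genes, and the ratio of any pair of them within a library, do not depend on the scaling.

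**Figure D1:**
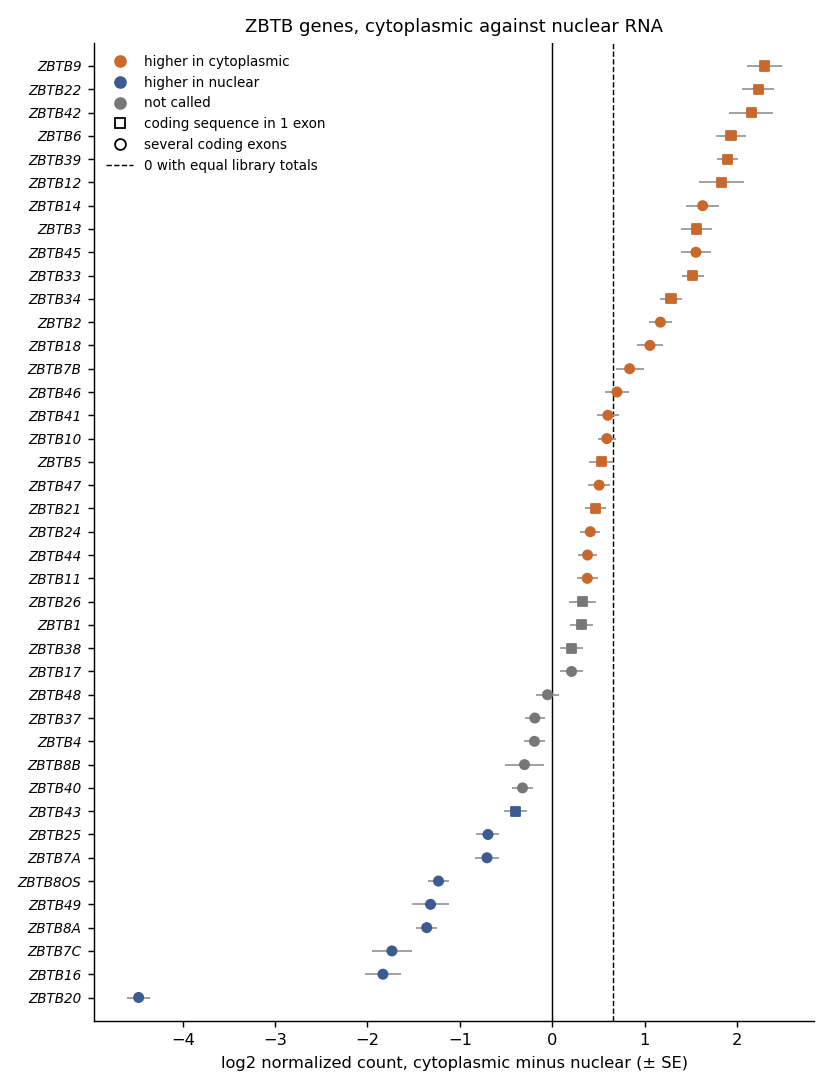
Log2 difference in normalized count between the fractions, cytoplasmic minus nuclear, with its standard error, for the 41 fitted ZBTB genes from the most nuclear at the bottom to the most cytoplasmic at the top. Colours give the call, squares mark genes whose whole coding sequence lies in 1 exon, and the dashed line at 0.66 is where 0 would lie with equal library totals. Values run from -4.48 for ZBTB20 to 2.30 for ZBTB9.

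The most cytoplasmic members were short genes with their coding sequence in 1 exon. ZBTB9 and ZBTB22, which lie in the extended major histocompatibility region of chromosome 6, led the family. ZBTB9 (chromosome 6, 33453970 to 33457544, plus strand) had normalized counts of 61.2 and 70.6 in the deeper and shallower nuclear libraries and of 319 and 329 in the cytoplasmic ones. The cytoplasmic libraries were thus about equal and both far above the nuclear ones, and the log2 difference was 2.30 (SE 0.19, adjusted p = 4.64e-13). ZBTB22 (chromosome 6, 33314406 to 33317942, minus strand), 136 kb away, had 76.8 and 105 in the nuclear and 433 and 407 in the cytoplasmic libraries. The fractions lay well apart, at a log2 difference of 2.23 (SE 0.17, adjusted p = 1.78e-13). ZBTB12 (chromosome 6, 31899613 to 31902086, minus strand), from the same region, was the shortest gene of the family at 2.47 kb. It stood at 39.5 and 47.9 nuclear and at 186 and 127 cytoplasmic. Its cytoplasmic libraries differed more from each other than for any other member, but both lay above the nuclear ones, and the log2 difference was 1.83 (SE 0.24, adjusted p = 2.52e-08). All exonic bases of ZBTB12 lie within the span of another gene in GENCODE 44. The authors removed stretches shared by genes in their own, earlier annotation, and how much of this gene was counted is not given in the sources used here.

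Another 4 members, each with coding sequence in 1 exon, were among the 8 with the largest cytoplasmic difference. ZBTB42, in which changes are linked to a muscle contracture syndrome, is a gene of 4.12 kb. It had normalized counts of 33.6 and 36.2 in the nuclear and 169 and 143 in the cytoplasmic libraries, a log2 difference of 2.16 (SE 0.24, adjusted p = 8.28e-10). The nuclear level was the lowest of any fitted member. ZBTB6 stood at 113 and 112 nuclear and at 419 and 444 cytoplasmic, with almost no spread in either fraction, and differed by 1.94 on the log2 scale (SE 0.16, adjusted p = 5.83e-13). ZBTB39 (chromosome 12, 56998836 to 57006546, minus strand) had the lowest adjusted p of the cytoplasmic members, 2.18e-16. Its normalized counts were 473 and 433 in the nuclear and 1595 and 1796 in the cytoplasmic libraries, a log2 difference of 1.90 (SE 0.12). ZBTB3 stood at 106 and 121 nuclear and at 312 and 362 cytoplasmic, a log2 difference of 1.57 (SE 0.17, adjusted p = 3.01e-10). The remaining one of the 8, ZBTB14, or ZF5, has 99.8% of its coding sequence in the larger of 2 coding exons. It had 83.5 and 102 nuclear and 301 and 268 cytoplasmic normalized counts, a log2 difference of 1.63 (SE 0.18, adjusted p = 5.37e-10). For these 5 genes every cytoplasmic library lay above both nuclear ones, as for 43.0% of all genes fitted. Each call was also made with equal library totals, as were cytoplasmic calls for 21.9% of all genes fitted. The genes were chosen for their large differences, so neither observation adds support to the calls.

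The nuclear end was held by ZBTB20, far from the next member. ZBTB20 is needed for the hippocampus to form and represses alpha-fetoprotein in the liver after birth. ZBTB20 (chromosome 3, 114314500 to 115147292, minus strand) is the longest gene of the family, with 35.4 kb of exons in a span of 833 kb. Its normalized counts were 7345 and 7156 in the nuclear and 354 and 296 in the cytoplasmic libraries. The nuclear libraries were close to each other, and the nuclear normalized count was 22.3-fold higher, a log2 difference of -4.48 (SE 0.13, adjusted p = 1.25e-24). It was -5.14 with equal library totals (adjusted p = 1.84e-19). ZBTB20 made up 23.3% and 23.8% of all ZBTB counts in the deeper and the shallower nuclear library, and 1.24% and 0.953% in the cytoplasmic ones. Without it, the ZBTB genes summed to normalized counts of 24160 and 22927 in the nuclear and 28135 and 30701 in the cytoplasmic libraries. With it the sums were 31504 and 30083 against 28489 and 30997, so with the size factors the fractions' sums overlapped with this gene and lay apart without it. The direction of the sum depended on the scaling. As a share of all counts in a library, the ZBTB genes made up 0.172% and 0.168% in the nuclear and 0.100% and 0.107% in the cytoplasmic libraries, and without ZBTB20 0.132% and 0.128% against 0.0991% and 0.106%. In GENCODE 44, 48.3% of the exonic bases of ZBTB20 lie within the span of another gene.

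**Figure D2:**
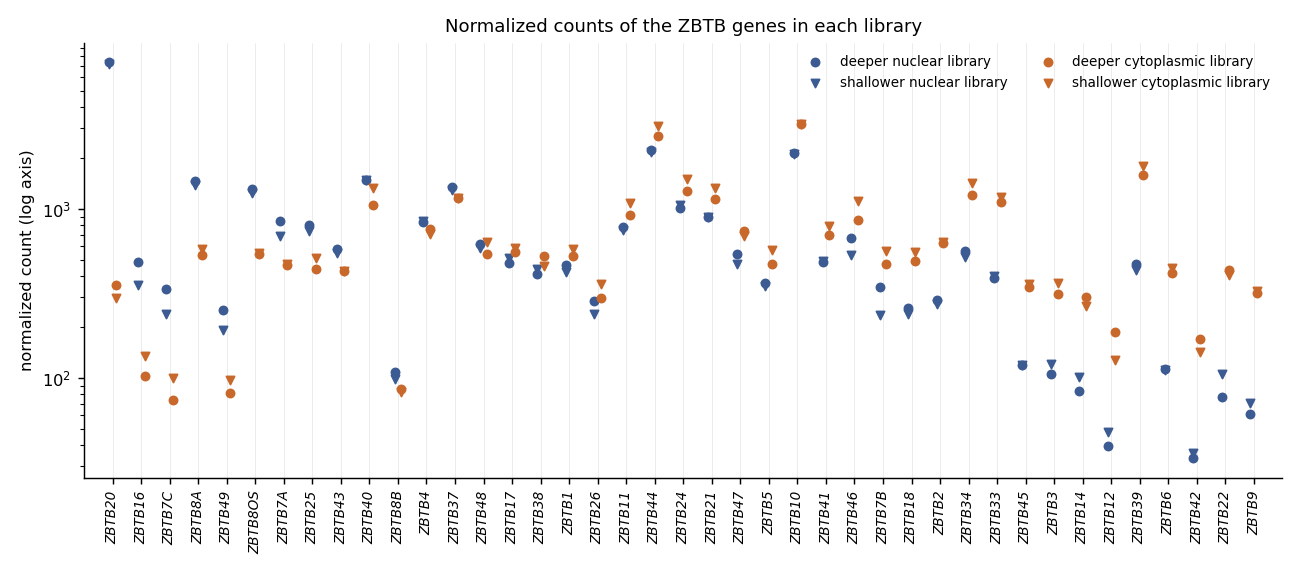
Normalized counts (log axis) of the 41 fitted ZBTB genes in each of the 4 libraries, ordered as by the log2 difference from ZBTB20 on the left to ZBTB9 on the right. Blue points are nuclear and orange points cytoplasmic libraries, with circles for the deeper and triangles for the shallower library of each fraction. The fractions overlap for ZBTB48 alone.

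The next most nuclear members were ZBTB16 and ZBTB7C, both in long genes. ZBTB16, or PLZF, directs natural killer T cells, maintains sperm stem cells and is fused to RARA in a form of acute promyelocytic leukaemia. ZBTB16 (chromosome 11, 114059041 to 114256765, plus strand) had normalized counts of 482 and 355 in the nuclear and 102 and 134 in the cytoplasmic libraries. Both fractions showed some spread and did not overlap, at a log2 difference of -1.83 (SE 0.19, adjusted p = 1.81e-10). ZBTB7C spans 384 kb of chromosome 18 and stood at 336 and 239 nuclear and at 73.9 and 99.4 cytoplasmic. It differed by -1.74 on the log2 scale (SE 0.21, adjusted p = 7.18e-09), with the nuclear libraries again unequal and above the cytoplasmic ones. ZBTB49, an activator of the cell cycle inhibitor CDKN1A, lay close to ZBTB8A in its log2 difference and spans 31.5 kb. Its normalized counts were 251 and 193 nuclear against 80.9 and 96.7 cytoplasmic, a log2 difference of -1.32 (SE 0.20, adjusted p = 6.23e-07).

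ZBTB8A and ZBTB8OS lie opposite each other on chromosome 1 and overlap at their ends by 5.77 kb. Their values were close to each other in every library. ZBTB8A (chromosome 1, 32539427 to 32605941, plus strand) had normalized counts of 1463 and 1387 in the nuclear and 535 and 578 in the cytoplasmic libraries. ZBTB8OS had 1309 and 1235 in the nuclear and 538 and 545 in the cytoplasmic ones. The log2 differences were -1.36 for ZBTB8A (SE 0.12, adjusted p = 1.5e-12) and -1.23 for ZBTB8OS (SE 0.12, adjusted p = 1.74e-11). The genes overlap on opposite strands, and 81.5% of the exonic bases of ZBTB8A lie within the span of another gene. The strand setting of the counting is not given in the sources used here, so the share of reads that could pass between them was not tested. ZBTB8B, on the same strand before ZBTB8A, stood at 109 and 98.4 nuclear and at 85.6 and 82.2 cytoplasmic and was not called (log2 difference -0.30, SE 0.21, adjusted p = 0.192). The call was nuclear with equal library totals, at -0.96 (adjusted p = 0.000227).

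The Kaiso group reads methylated CpG sites, and its members did not stand together. ZBTB33, or Kaiso itself (chromosome X, 120250752 to 120258398, plus strand), is a gene of 7.65 kb with its coding sequence in 1 exon. It had normalized counts of 389 and 403 in the nuclear and 1097 and 1177 in the cytoplasmic libraries. The libraries of each fraction were close to each other, and the log2 difference was 1.52 (SE 0.12, adjusted p = 1.13e-13). ZBTB38 stood at 412 and 441 nuclear and at 525 and 461 cytoplasmic, and its log2 difference of 0.21 (SE 0.13) was not called (adjusted p = 0.128). ZBTB4 had 832 and 848 nuclear against 760 and 710 cytoplasmic, a log2 difference of -0.19 (SE 0.11) that was not called either (adjusted p = 0.119). Both were called nuclear with equal library totals, ZBTB38 at -0.45 (adjusted p = 0.00243) and ZBTB4 at -0.85 (adjusted p = 2.06e-07). The ratio of ZBTB33 to ZBTB4 counts within a library was 0.467 and 0.475 in the nuclear and 1.44 and 1.66 in the cytoplasmic libraries, a 3.29-fold change that no scaling alters.

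The ZBTB7 genes also parted. ZBTB7A, or LRF, silences fetal globin in red cell precursors, ZBTB7B, or ThPOK, fixes the CD4 fate of T cells, and ZBTB7C is less studied. ZBTB7A (chromosome 19, 4043303 to 4066899, minus strand) stood at 849 and 687 in the nuclear and at 465 and 472 in the cytoplasmic libraries. Its log2 difference was -0.71 (SE 0.13, adjusted p = 8.19e-06), with both nuclear libraries above both cytoplasmic ones. ZBTB7B had 345 and 235 nuclear and 473 and 561 cytoplasmic normalized counts, a log2 difference of 0.84 (SE 0.15, adjusted p = 7.07e-06). Its nuclear libraries differed more from each other than those of any other member, and with equal library totals it was at 0.18 (adjusted p = 0.289). The ratio of ZBTB7B to ZBTB7C counts went from 1.03 and 0.986 in the nuclear libraries to 6.4 and 5.64 in the cytoplasmic ones. All 3 proteins hold 3 fingers by the motif search.

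Members known from blood cells, apart from those above, were spread over the middle. ZBTB25, a repressor of NFAT targets in T cells, stood at 800.2 and 735 nuclear and at 439 and 514 cytoplasmic, a log2 difference of -0.70 (SE 0.12, adjusted p = 6.81e-06). ZBTB17, or MIZ1, through which MYC represses genes, had 479 and 509 nuclear and 556 and 586 cytoplasmic normalized counts. Its fractions did not overlap, but the log2 difference of 0.21 (SE 0.12) was not called (adjusted p = 0.113), and with equal library totals it became -0.45 (adjusted p = 0.0013). ZBTB1, needed for lymphoid cells to develop, was at 0.31 (SE 0.13, adjusted p = 0.0226) and was not called, and 97.9% of its exonic bases lie within the span of another gene. ZBTB46, a marker of dendritic cells, was at 0.70 (SE 0.13, adjusted p = 8.83e-06), and this call was lost with equal library totals, at 0.04 (adjusted p = 0.783).

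Of the members tied to the nervous system, ZBTB18 and ZBTB45 were cytoplasmic, opposite to ZBTB20. ZBTB18, or RP58, is needed for cortical neurons, and its coding sequence lies almost whole in 1 of its 2 coding exons. ZBTB18 (chromosome 1, 244048547 to 244057476, plus strand) had normalized counts of 260.3 and 238 in the nuclear and 489 and 554 in the cytoplasmic libraries. It was higher by 1.06 on the log2 scale in the cytoplasmic fraction (SE 0.14, adjusted p = 1.83e-08). ZBTB45, which acts in glial precursors, stood at 119 in both nuclear libraries and at 344 and 360.5 in the cytoplasmic ones, a log2 difference of 1.56 (SE 0.16, adjusted p = 1.4e-10). The 2 genes kept their calls with equal library totals. The ratio of ZBTB18 to ZBTB20 counts changed 46.9-fold between the fractions.

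The members tied to telomeres or centromeres did not move one way. ZBTB48, or TZAP, binds telomeric repeats and was the member nearest to 0. ZBTB48 (chromosome 1, 6579994 to 6589280, plus strand) had 617 and 589 nuclear and 537 and 635 cytoplasmic normalized counts. The cytoplasmic libraries lay on either side of the nuclear ones, and the log2 difference was -0.05 (SE 0.12, adjusted p = 0.707). Without the deeper cytoplasmic library it was 0.073, and with equal library totals -0.71 (adjusted p = 8.03e-06). ZBTB10, which binds variant telomeric repeats, had 2126 and 2099 nuclear and 3196 and 3173 cytoplasmic normalized counts. Both fractions were tight, and the log2 difference of 0.59 (SE 0.10, adjusted p = 2.61e-06) turned to -0.070 with equal library totals (adjusted p = 0.496). ZBTB40 stood at 1476 and 1484 nuclear and at 1054 and 1336 cytoplasmic. It was the member just outside the threshold, at -0.32 (SE 0.11, adjusted p = 0.0104). It was called nuclear with equal library totals, at -0.98 (adjusted p = 2.23e-08), as it was with centring on protein-coding genes, at -0.53 (adjusted p = 0.00015). Leaving out the deeper cytoplasmic library moved it to -0.15 (adjusted p = 0.33), and leaving out the shallower one to -0.49 (adjusted p = 0.00181). ZBTB24, mutated in an immunodeficiency with unstable centromeres, was at 0.41 (SE 0.11, adjusted p = 0.00104) and at -0.25 with equal library totals (adjusted p = 0.0337).

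ZBTB20, ZBTB10, ZBTB44, ZBTB40 and ZBTB37 had the highest means of the family, counted per gene and not per length. ZBTB44 stood at 2234 and 2182 in the nuclear and at 2698 and 3077 in the cytoplasmic libraries. Its log2 difference of 0.38 (SE 0.10, adjusted p = 0.00112) became -0.28 with equal library totals (adjusted p = 0.0116). ZBTB37 had 1352 and 1284 nuclear and 1151 and 1162 cytoplasmic normalized counts and was not called (log2 difference -0.19, SE 0.11, adjusted p = 0.103). It was called nuclear with equal library totals, at -0.85 (adjusted p = 5.73e-08), and with centring on protein-coding genes, at -0.40 (adjusted p = 0.00118). ZBTB43 was the member just inside the threshold, with 582 and 547 nuclear against 429 and 428 cytoplasmic normalized counts. The log2 difference was -0.40 (SE 0.13, adjusted p = 0.00476), and the call was lost when the deeper nuclear, the deeper cytoplasmic or the shallower cytoplasmic library was left out (adjusted p = 0.0351, 0.0326 and 0.03).

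The other 9 members complete the list. ZBTB34 and ZBTB2, a repressor in the p53 pathway, were higher in the cytoplasmic fraction under both scalings, with log2 differences of 1.29 (SE 0.12, adjusted p = 6.19e-12) and 1.17 (SE 0.13, adjusted p = 5.67e-10). ZBTB41, ZBTB5, ZBTB47, ZBTB21 and ZBTB11 were called cytoplasmic with log2 differences from 0.38 for ZBTB11 to 0.60 for ZBTB41. None of these 5 was called with equal library totals, where their log2 differences ran from -0.28 to -0.059. ZBTB26 was at 0.33 (SE 0.15, adjusted p = 0.0448) and was not called. The ninth is ZBTB32, which was not fitted.

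Gene length went with the place between the fractions. Of 11 ZBTB genes that span under 10 kb, 10 were called cytoplasmic and none nuclear, and the median log2 difference was 1.83. The exception was ZBTB48, whose coding sequence is split over 10 exons within 9.29 kb. With equal library totals the same 10 were called cytoplasmic and ZBTB48 nuclear. Of 5 genes over 100 kb, ZBTB20, ZBTB7C and ZBTB16 were called nuclear, and ZBTB40 and ZBTB38 were not called. All 5 were called nuclear with equal library totals. Protein-coding genes in general showed the same order. Of 2457 under 10 kb, 75.6% were called cytoplasmic, and of 3074 over 100 kb, 77.0% were called nuclear. With equal library totals, 1558 of the 2457 were called cytoplasmic and 2789 of the 3074 nuclear. Across the 41 ZBTB genes, Spearman's rho of the log2 difference was -0.76 with gene span and -0.74 with intron length. These are descriptions over genes that share the 4 libraries, and genes are not replicates. Across 13984 protein-coding genes rho with span was -0.64, and across 458 ZNF genes it was -0.63. The rank correlation with exonic length was -0.56 and with the number of finger motifs -0.14. Among the 26 ZBTB genes with several coding exons, rho with span was -0.60.

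**Figure D3:**
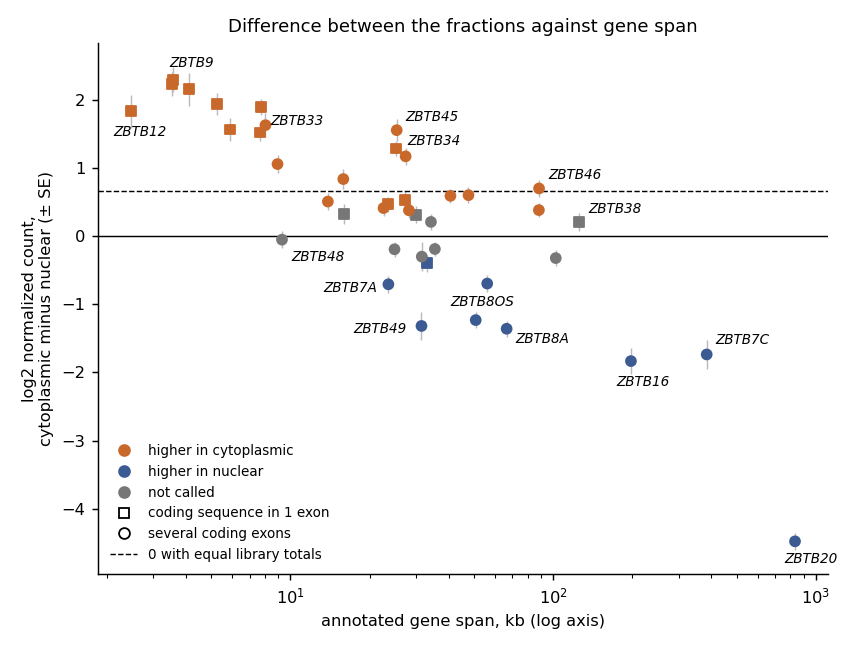
Log2 difference in normalized count, cytoplasmic minus nuclear, with its standard error, against the annotated gene span in kb (log axis) for the 41 fitted ZBTB genes. Colours give the call, squares mark genes with their coding sequence in 1 exon, and the dashed line at 0.66 is where 0 would lie with equal library totals. The genes under 10 kb lie at the top apart from ZBTB48, and ZBTB16, ZBTB7C and ZBTB20 lie at the lower right.

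Exon structure was described in the same way. In 15 of the 41 genes the canonical transcript has its coding sequence in 1 exon. Of these, 11 were called cytoplasmic and 1, ZBTB43, nuclear, while ZBTB26, ZBTB1 and ZBTB38 were not called. Their median log2 difference was 1.52. Of the 26 genes with several coding exons, 12 (46.2%) were called cytoplasmic and 8 (30.8%) nuclear, at a median of 0.08. For 13157 protein-coding genes with several coding exons the shares were 39.6% and 36.6%, at a median of 0.05. Among 811 protein-coding genes with 1 coding exon, 67.0% were called cytoplasmic, and among 41 such ZNF genes 61.0%. With equal library totals, 9 of the 15 ZBTB genes were called cytoplasmic and 2 nuclear, against 408 and 151 of the 811 protein-coding genes. The 15 genes do not share 1 length. ZBTB38 codes its protein of 1195 residues in 1 exon within a span of 126 kb, and ZBTB12 has 1 coding exon within 2.47 kb. ZBTB12, ZBTB22, ZBTB9, ZBTB42, ZBTB6, ZBTB3, ZBTB33 and ZBTB39 each span under 10 kb and were called cytoplasmic under both scalings. Of the longer ones, ZBTB34, ZBTB21 and ZBTB5 were called cytoplasmic, and of these only ZBTB34 with equal library totals. A single coding exon and a short span thus often coincide here, and their shares in the calls were not tested apart.

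**Figure D4:**
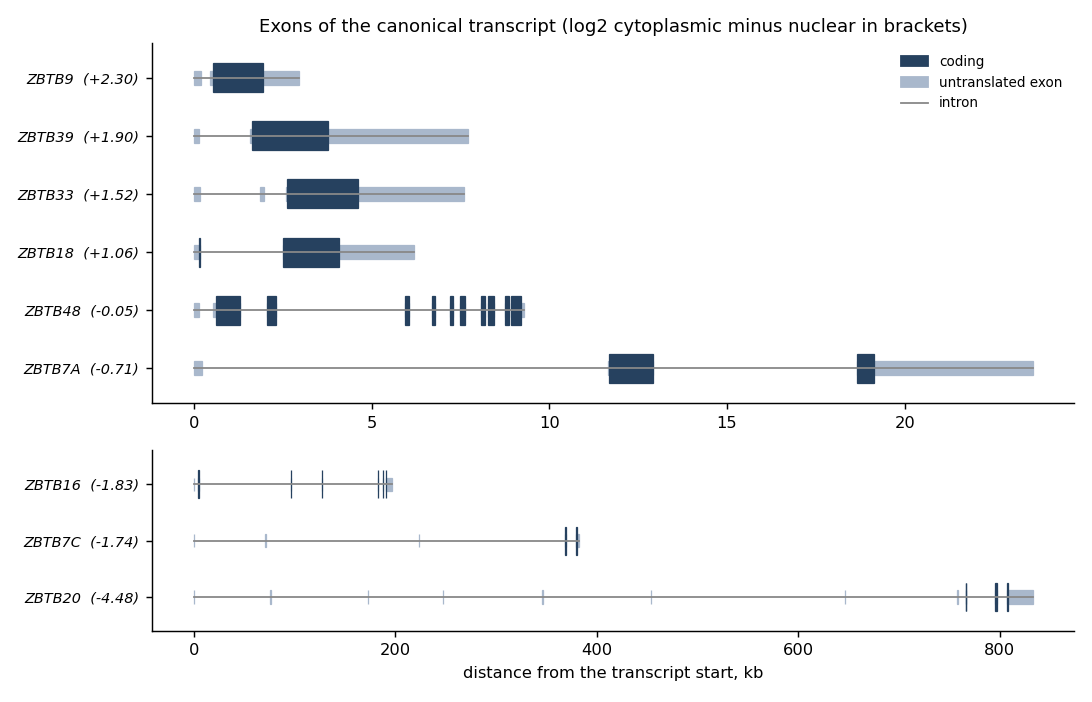
Exons of the GENCODE 44 canonical transcript of 9 ZBTB genes against distance from the transcript start in kb, with coding parts as tall dark boxes, untranslated exons as low light boxes and introns as lines. The upper and lower panels have different scales, boxes carry a thin outline so that short exons can be seen, and the log2 difference, cytoplasmic minus nuclear, stands in brackets. ZBTB9, ZBTB39 and ZBTB33 have 1 coding block. The coding blocks of ZBTB16 are separated by long introns, while those of ZBTB7C and ZBTB20 lie beyond the longest introns of these genes.

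Neighbouring members gave pairs in which the ratio of counts within a library could be followed. These pairs were chosen after their values had been seen. ZBTB6 and ZBTB26 lie 2.24 kb apart on the same strand of chromosome 9, and both have their coding sequence in 1 exon. The ratio of ZBTB6 to ZBTB26 counts was 0.396 and 0.472 in the nuclear and 1.41 and 1.23 in the cytoplasmic libraries, so it changed 3.04-fold between the fractions. ZBTB6 spans 5.27 kb and ZBTB26 15.9 kb. ZBTB34 and ZBTB43, also on chromosome 9 and also with 1 coding exon each, lie 22.4 kb apart. Their ratio was 0.964 and 0.942 nuclear and 2.82 and 3.34 cytoplasmic, a 3.22-fold change between genes of 25.2 and 33.2 kb. ZBTB1 and ZBTB25 overlap at their starts on opposite strands of chromosome 14, and their ratio went from 0.583 and 0.574 to 1.2 and 1.13. ZBTB22 and ZBTB9 kept theirs, at 1.26 and 1.49 nuclear and 1.36 and 1.24 cytoplasmic.

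BTB zinc finger genes that carry other names were compared as the rest of the family. Of 8 such genes, 4 were called cytoplasmic, 1 nuclear and 3 neither, at a median log2 difference of 1.17. The shares over all genes fitted were 35.3% cytoplasmic and 38.4% nuclear, at a median of -0.09. The difference of these 8 genes from all genes was not tested. PATZ1 was at 1.17 (SE 0.11, adjusted p = 1.84e-11), HIC2 at 1.55 (SE 0.11, adjusted p = 5.9e-15), HIC1, a tumour suppressor, at 1.46 (SE 0.25, adjusted p = 3.91e-06) and GZF1 at 1.33 (SE 0.15, adjusted p = 1.92e-09). All 4 were called cytoplasmic with equal library totals too, as were 21.9% of all genes fitted. The nuclear gene was ZNF131, at -0.98 (SE 0.11, adjusted p = 1.42e-09), which spans 127 kb. BCL6, the master repressor of germinal centre B cells, had normalized counts of 147 and 122 in the nuclear and 163 and 160.3 in the cytoplasmic libraries and was not called (log2 difference 0.27, SE 0.18, adjusted p = 0.169). BCL6B, at 1.18 (SE 0.43, adjusted p = 0.0127), and MYNN, at -0.02 (SE 0.12, adjusted p = 0.869), were not called either. With equal library totals MYNN was called nuclear, at -0.68 (adjusted p = 1.3e-05). Then 2 of the 8 genes, MYNN and ZNF131, were called nuclear, against 52.7% of all genes fitted.

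Genes for proteins that BTB zinc finger proteins bind were taken from a list, and 13 of them had recovered counts. Of the 13, 8 (61.5%) were called cytoplasmic, 3 (23.1%) nuclear and 2 neither, at a median log2 difference of 0.69. Over all genes fitted, 35.3% were called cytoplasmic and 38.4% nuclear. With equal library totals 6 partner genes were cytoplasmic and 5 nuclear, against 21.9% and 52.7% of all genes fitted. The difference of the list from all genes was not tested. CUL3, the ligase scaffold that BTB domains bind, was nuclear at -1.11 (SE 0.10, adjusted p = 1.46e-11), while its partner RBX1 was at 0.57 (SE 0.11, adjusted p = 1.28e-05) and lost its call with equal totals. The histone deacetylase gene HDAC3 was at 1.74 (SE 0.11, adjusted p = 3.61e-16) and GPS2, of the same corepressor complex, at 1.84 (SE 0.12, adjusted p = 5.77e-16). NCOR1, the scaffold of that complex, was at -0.66 (SE 0.10, adjusted p = 7.76e-07). CTBP1 and CTBP2, a pair of related corepressors, lay on opposite sides, at 1.02 (SE 0.10, adjusted p = 2.59e-11) and -1.25 (SE 0.11, adjusted p = 6.77e-12). CTBP1 spans 38.9 kb and CTBP2 177 kb. CHD4, RBBP4, RBBP7 and NACC1 were cytoplasmic at 0.69 to 1.07, and SIN3A and NACC2 were not called. With equal library totals RBBP4 also lost its call, at 0.03 (adjusted p = 0.779). SIN3A and NACC2 were then called nuclear, at -0.55 (adjusted p = 1.74e-05) and -0.47 (adjusted p = 0.00022).

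**Figure D5:**
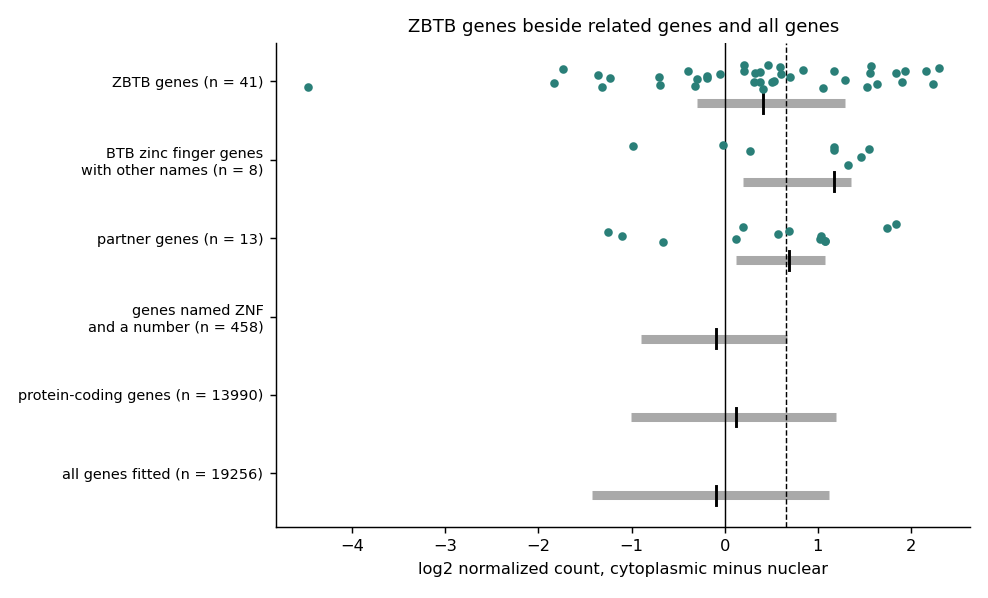
Log2 difference in normalized count, cytoplasmic minus nuclear, for ZBTB genes, BTB zinc finger genes with other names and partner genes (points, moved up or down at random to be seen), and for genes named ZNF and a number, protein-coding genes and all genes fitted. Black marks are medians, grey bars run from the 25th to the 75th percentile, and the dashed line at 0.66 is where 0 would lie with equal library totals. The medians are 0.41 for ZBTB genes and -0.09 for all genes fitted, and the groups overlap widely.

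Replicate spread was small beside most of these differences. The absolute log2 ratio of the 2 libraries of a fraction had a median over the ZBTB genes of 0.10 for nuclei and 0.19 for cytoplasm. It was largest for ZBTB7B among nuclear and for ZBTB12 among cytoplasmic values, at 0.55 in both. The standard error of the log2 difference had a median of 0.13 over the ZBTB genes and rose to 0.24 for ZBTB42 and ZBTB12. These and ZBTB8B, at 0.21, were the members with the lowest means.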

How the data were processed

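The authors aligned reads to hg38 with STAR, counted them over exons and introns with featureCounts 2.0.2 in an annotation built on GENCODE, from which overlapping stretches and readthrough transcripts were removed, and compared the fractions with DESeq2. Of their deposited comparison columns (log2 fold change, its standard error, statistic, p-value and adjusted p-value), none is printed. The deposited mean normalized count is a signal that the authors averaged over all 4 libraries. It is a sum of whole counts, each divided by 4 times a library's size factor, so genes with 1 count in all give the 4 steps. The sign of the authors' log2 estimate told which steps are nuclear. For each gene, combinations of whole counts that give the mean to its printed precision were listed. For means of 15 or more, only combinations near the split between the fractions given by the authors' log2 fold change were listed. Where there were several, the authors' deposited log2 fold change and standard error decided between them. The recovered values of all 41 fitted ZBTB genes therefore rest on that estimate. Within the combinations listed, 26 of these genes had several and 15 had a single one. Counts were recovered for 32066 of 32478 genes with a mean above 0 (98.7%) and for all 42 ZBTB genes. Means over 10000 were not tried. For 2883 genes with a mean of at least 5 whose mean alone fixed the counts, the estimate was unused. There the counts gave it within 0.001 for 94.7%. In the main the mean alone was used for means under 15. This check therefore covers genes with few counts and none of the 41 fitted ZBTB genes, which were solved with the estimate.

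The 19256 genes with a mean of at least 5 were fitted with limma 3.58.1 in R 4.3.3, with voom weights and the recovered size factors as scale. P-values were Benjamini-Hochberg adjusted over all of them, and a gene was called at 0.01 or less. Both steps were also run on simulated data. In the simulation of the fit few genes differed, evenly in both directions and with the scale known. It therefore does not cover the choice of scaling or data in which most genes differ. With 2 libraries per fraction, the number of libraries limits the precision, and counting error alone is larger for genes with few counts. The totals used for equal scaling include unresolved genes at their mean in each fraction. The members and lists were chosen with earlier results of these data known. The text names ZBTB8OS, the 8 most cytoplasmic and 8 most nuclear called members, the 5 with the highest mean, 7 well-known members, those nearest 0 and nearest the threshold, and accounts for the rest by role. Spans, exons and finger motifs are from GENCODE 44, in which all 41 fitted members had a match. The authors' annotation was an earlier release. Alternatives were equal library totals, centring on protein-coding genes, other filters, limma-trend, leaving out each library, a Bonferroni adjustment and a threshold of 0.05. A gene of the partner list is not reported here.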

Additional observations from a re-analysis of the deposited data

How the results depend on the processing

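No paired analysis was possible because the recovered libraries carry no replicate number, so which libraries belong together is not known. The planned edgeR and DESeq2 fits were not run, since the deposited table holds no counts per library. With equal library totals, the members called cytoplasmic fell from 23 to 13 and those called nuclear rose from 9 to 16, since every log2 difference then shifts by -0.66. The median turned to -0.25, and it was 0.20 with centring on protein-coding genes, an alternative added for the median after the data were seen. A Bonferroni adjustment left 13 cytoplasmic and 6 nuclear calls, without ZBTB7A, ZBTB25 and ZBTB43. Leaving out each library in turn gave 18 to 23 cytoplasmic and 8 to 9 nuclear calls and a median from 0.30 to 0.50. The 18 calls came without the shallower cytoplasmic library, when ZBTB11, ZBTB21, ZBTB24, ZBTB44 and ZBTB5 lost theirs and ZBTB40 took the place of ZBTB43 among the nuclear calls. ZBTB11 also lost its call without the shallower nuclear, and ZBTB47 without the deeper cytoplasmic library. With equal library totals 12 members changed sign, all from above to below 0. Among the 25 chosen for full values, those that changed sign under any alternative were ZBTB17 (-0.45 with equal library totals, -0.0032 with centring), ZBTB44 (-0.28) and ZBTB10 (-0.070), both with equal library totals, and ZBTB48 (0.073 without the deeper and -0.17 without the shallower cytoplasmic library). Without ZBTB8OS, rho was -0.63 with exonic length and -0.21 with the number of finger motifs. The count of members with 1 coding exon called cytoplasmic, followed after the data were seen, stayed within 9 to 11 over the scalings, filters, limma-trend settings and omitted libraries tried. Of the 300 settings computed for these 25 members, 276 kept direction and side of the threshold, 11 lost a call, 8 gained one and 5 changed sign.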
